A study of Mus musculus with 18 samples.

Results

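The 10 genes described here encode the core enzymes that turn arachidonic acid into prostaglandins, thromboxane and leukotrienes, and they were chosen by name as rows of a table of 21734 protein-coding genes. They are the phospholipase gene Pla2g4a, the cyclooxygenase genes Ptgs1 and Ptgs2, the terminal prostanoid synthase genes Ptges, Hpgds and Tbxas1, and the leukotriene genes Alox5, Alox5ap, Lta4h and Ltc4s. All 10 passed the filter on low counts, which left 11357 genes for testing. The data are RNA-seq counts from bone marrow-derived macrophages (BMDMs) of mice that differed at the microRNA gene mir-146a, in 6 groups of 3 libraries each, and the study asked whether the 3′ part of this microRNA matters for macrophage function. By the labels the mice were a 129/B6 mix aged 6 to 7 months, 3 of each genotype, and their marrow was grown for 8 to 9 days with M-CSF (10 ng/ml). The study's methods give a younger age for the BMDM lysates used in mass spectrometry. Its results describe RNA and protein as fractions of the same replicates, so the age of these mice is uncertain. WT mice carried the unaltered gene, KO mice were homozygous for a deletion of mir-146a, and 3′F mice were homozygous for an allele that keeps the 5′ sequence of the mature microRNA, seed included, and replaces its 3′ sequence. The altered alleles were germline and so present in every cell, each was made in embryonic stem cells and kept as its own colony, and miR-146b was intact in all 3 genotypes. Within each genotype, cultures received new medium without LPS (resting) or with 1 ng/ml LPS, a bacterial cell wall component sensed through TLR4, and were harvested after 16 h. Libraries outnumbered mice in each genotype, and the labels do not say which cultures came from the same mouse. The main test took the libraries as independent, and a fit with a replicate block was an alternative.

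Macrophages make eicosanoids from arachidonic acid that cytosolic phospholipase A2 releases from membranes. Cyclooxygenases convert it to the unstable prostaglandin H2, and terminal synthases then make prostaglandin E2, prostaglandin D2 or thromboxane A2. In the other branch, 5-lipoxygenase with its partner protein FLAP makes leukotriene A4, which is hydrolysed to leukotriene B4 or joined to glutathione as leukotriene C4. Inducible cyclooxygenase and microsomal prostaglandin E synthase are known for their induction by LPS in macrophages.

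The mature sequences that set the genotypes apart are shown because every comparison of genotypes turns on them. The seed, bases 2 to 8 from the 5′ end, is in capitals. The 3′F sequence is the designed 20-base mimic of the mutant microRNA from the study's oligonucleotide list, and the other sequences are from RefSeq (GRCm38.p6).
miR-146a-5p: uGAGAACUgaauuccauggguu
miR-146a-5p, 3′F mimic: uGAGAACUgaauaagugucc
miR-146b-5p: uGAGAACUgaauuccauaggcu
All 3 share the seed. Over the 20 bases that the mimic spans, it differed from miR-146a-5p at 8 bases, all from position 13 to position 20. Over the full 22 bases, miR-146b-5p differed from miR-146a-5p at 2. MiR-146a-5p is encoded at chr11:43374435-43374456 on the minus strand. The counts cover protein-coding genes, so the microRNA itself was not analysed here, and the genotype labels could not be checked through it.

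A match to this seed (AGTTCTC, or GTTCTCA, on the transcript strand) was absent from the longest annotated 3′ UTR of all 10 enzyme genes. Of 20786 genes of the table with an annotated 3′ UTR, 18.2% held at least 1 such match of 7 or 8 bases. The members' 3′ UTRs ranged from 94 bases in Lta4h to 3106 bases in Ptges. The same search found 2 matches of 8 bases in Irak1 and 4 in Traf6, both established miR-146a targets. The absence says only that these letters are not in these UTRs.

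Library totals ranged from 4071084 counts, in resting 3′F replicate 3, to 19818043 counts, and levels are given as counts per 1000000 (CPM) of the TMM-scaled library. Resting KO replicate 3 stood apart from the other resting libraries on the first principal component (19.7, against -62.4 to -28.2), towards the LPS libraries, and resting 3′F replicate 3 stood apart on the second (50.3). The 8 macrophage markers summed to between 31772 and 87900 CPM. Lyz2 alone ranged from 26461 to 75160 CPM, and each of the others lay between 42.6 and 4895 CPM. Markers of other cell types were low. The 8 mast cell and basophil markers summed to at most 1.87 CPM, the 3 eosinophil markers to at most 0.468 CPM and the 5 platelet markers to at most 3.71 CPM, while the 8 neutrophil and granulocyte precursor markers summed to between 13.7 and 67.0 CPM, with Ly6g at no more than 2 counts in any library. In bulk RNA, fewer cells of a type and less RNA per cell cannot be told apart.

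Per kilobase of exon, Alox5ap was the most abundant of the 10 transcripts in every group, at 254 ± 18.03 CPM per kilobase in resting WT cells (SD, n = 3). Resting WT cells then held Hpgds at 65.2 ± 5.81, Tbxas1 at 40.6 ± 8.54 and Lta4h at 34.7 ± 1.96 CPM per kilobase, of which Tbxas1 and Lta4h did not differ beyond their spread. Pla2g4a followed at 11.9 ± 0.925, Ltc4s at 8.99 ± 0.920 and Ptgs1 at 4.97 ± 0.180 CPM per kilobase. The lowest levels belonged to Ptges at 2.41 ± 0.279 and Alox5 at 2.20 ± 0.154, which did not differ beyond their spread, and to Ptgs2 at 0.434 ± 0.365 CPM per kilobase. With LPS, Ptges moved from place 8 to place 2 of the 10 in each genotype, and the lowest places were held by Ptgs2 and Alox5, which did not differ beyond their spread. The highest group mean exceeded the lowest 76.8-fold for Ptges, and only 1.22-fold for Tbxas1.

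**Figure D1:**
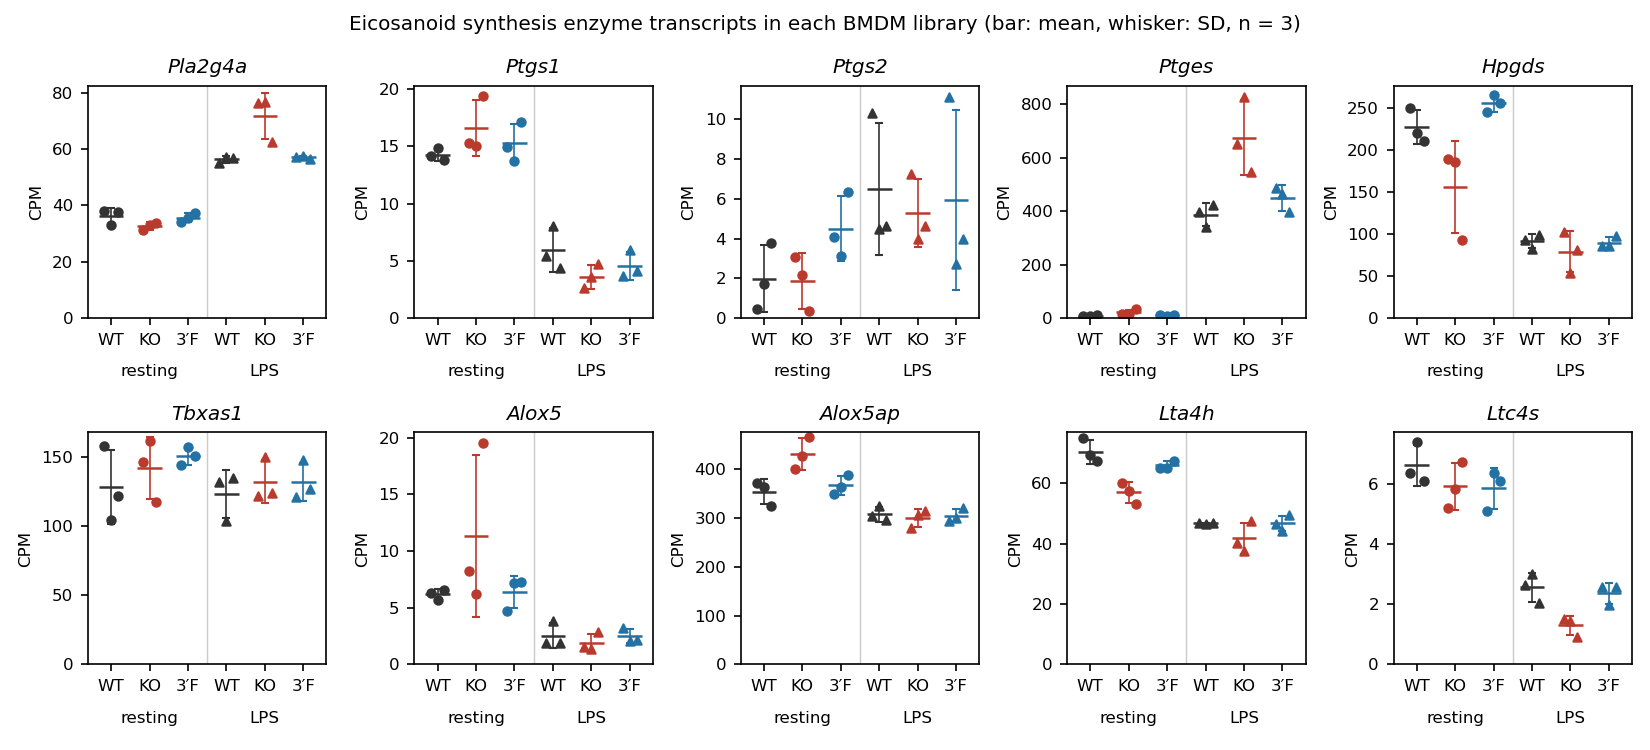
CPM of each of the 10 genes (linear axes from 0) in the 18 libraries, by genotype and state, with circles for resting and triangles for LPS libraries, the mean as a bar and the SD as a whisker (n = 3). Ptges lay between 8.13 and 32.9 CPM at rest and between 339 and 827 CPM with LPS, whereas the resting and LPS libraries of each genotype overlapped for Tbxas1.

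LPS raised 2 of the 10 transcripts, Ptges and Pla2g4a, in each genotype and lowered most of the others. In WT cells 2 members rose and 5 fell, beside 16.3% of all tested genes called higher and 12.3% called lower. In KO cells 2 rose and 6 fell (14.3% of all genes higher, 12.6% lower), and in 3′F cells 2 rose and 6 fell (17.2% higher, 14.0% lower). Calls here and throughout are at a Benjamini-Hochberg adjusted p under 0.05 in edgeR's quasi-likelihood test over all 11357 genes. The median log2 fold change of the 10 members was -0.40 in WT, -0.49 in KO and -0.38 in 3′F cells, and that of all tested genes was 0.02, 0.02 and -0.01. In the plot of LPS responses the members spread from -2.54 to 5.46 on the log2 scale.

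**Figure D2:**
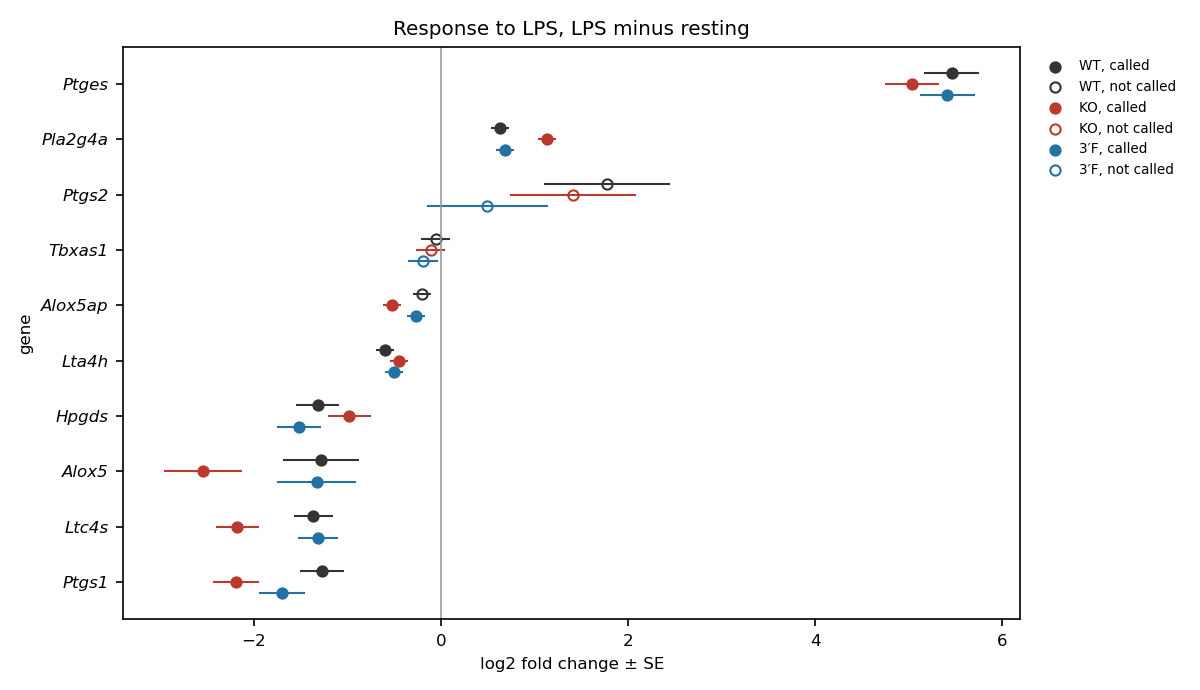
Log2 fold change with LPS (LPS minus resting, x axis) of each gene (y axis) in WT, KO and 3′F cells, with the SE as a line, filled where called at adjusted p under 0.05 and open where not. Ptges lay above 5 and Pla2g4a between 0.63 and 1.14 in all 3 genotypes, and Ptgs2 and Tbxas1 were not called in any.

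Pla2g4a (chr1:149829618-149961290, minus strand, GRCm38) encodes cytosolic phospholipase A2α, which frees arachidonic acid. Its resting level was 38.1, 33.0 and 37.6 CPM in the WT libraries, 31.1, 33.1 and 33.8 CPM in KO and 34.1, 35.5 and 37.2 CPM in 3′F. With LPS it was 54.9, 57.3 and 56.7 CPM in WT, 76.4, 76.5 and 62.4 CPM in KO and 57.2, 57.5 and 56.6 CPM in 3′F. Every LPS library lay above every resting library, and the KO libraries with LPS lay above all others. The log2 fold change with LPS was 0.63 ± 0.09 in WT (SE, adjusted p = 0.000117), 1.14 ± 0.09 in KO (adjusted p = 3.15e-07) and 0.68 ± 0.09 in 3′F (adjusted p = 5.82e-05).

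Among the cyclooxygenases, Ptgs1 (chr2:36230426-36252272, plus strand) encodes the constitutive COX-1. Its level was 14.1, 14.8 and 13.8 CPM in resting WT, 15.3, 15.1 and 19.4 CPM in resting KO and 15.0, 13.7 and 17.1 CPM in resting 3′F libraries. With LPS it was 5.37, 8.05 and 4.32 CPM in WT, 2.62, 3.55 and 4.71 CPM in KO and 3.66, 5.97 and 4.10 CPM in 3′F. Resting and LPS libraries did not overlap in any genotype. Ptgs1 fell by 1.27 ± 0.23 on the log2 scale in WT (adjusted p = 0.000780), fell by 2.19 ± 0.24 in KO (adjusted p = 6.95e-06) and fell by 1.70 ± 0.24 in 3′F (adjusted p = 8.40e-05).

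Ptgs2 (chr1:150100031-150108227, plus strand) encodes the inducible COX-2, and at 16 h it was scarce and variable. It stood at 0.460, 1.73 and 3.77 CPM in resting WT, 3.09, 2.14 and 0.337 CPM in resting KO and 4.06, 3.13 and 6.32 CPM in resting 3′F libraries, the lowest of which was 3 counts. With LPS it was 10.3, 4.50 and 4.62 CPM in WT, 7.23, 3.98 and 4.64 CPM in KO and 11.1, 2.74 and 3.98 CPM in 3′F. The WT and KO libraries with LPS lay above the resting libraries of their genotype, and the 3′F libraries overlapped. The log2 difference was 1.77 ± 0.67 in WT (adjusted p = 0.0603), 1.41 ± 0.67 in KO (adjusted p = 0.133) and 0.50 ± 0.64 in 3′F (adjusted p = 0.587), so Ptgs2 was not called in any genotype in edgeR. In WT it was called in 3 alternatives, with DESeq2 (1.69, adjusted p = 0.0388), without the low-count filter (1.73, adjusted p = 0.0421) and without resting WT replicate 3 (2.59, adjusted p = 0.0268). The counts leave wide limits, with a 95% interval of 0.34 to 3.20 in WT. Over the 18 libraries, the genes whose log2 CPM followed Ptgs2 most closely were St18 (Pearson r = 0.82), Prokr1 (0.80) and Acvr2a (0.80), a description over libraries that share genotypes and states.

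Ptges (chr2:30889471-30929863, minus strand) encodes microsomal prostaglandin E synthase-1, the inducible enzyme of prostaglandin E2 synthesis. Its resting level was 8.28, 8.13 and 9.96 CPM in WT, 14.2, 15.3 and 32.9 CPM in KO and 12.0, 9.10 and 10.5 CPM in 3′F. With LPS it was 396, 339 and 423 CPM in WT, 650, 827 and 548 CPM in KO and 488, 464 and 396 CPM in 3′F. All LPS libraries lay far above all resting libraries, and within each state the KO libraries were the highest. The log2 fold change was 5.46 ± 0.29 in WT, a 44.0-fold rise (adjusted p = 8.83e-09), 5.04 ± 0.29 in KO (adjusted p = 6.46e-09) and 5.41 ± 0.29 in 3′F (adjusted p = 6.41e-09). By p, Ptges was number 3 of all 11357 genes in the WT response, number 11 in KO and number 6 in 3′F.

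Hpgds (chr6:65117293-65144908, minus strand), the hematopoietic prostaglandin D synthase gene, had a resting level of 249, 220 and 210 CPM in WT, 189, 185 and 93.1 CPM in KO and 245, 265 and 256 CPM in 3′F. With LPS it was 93.2, 82.1 and 98.4 CPM in WT, 102, 53.7 and 81.2 CPM in KO and 85.4, 85.7 and 97.0 CPM in 3′F. WT and 3′F states did not overlap, while resting KO replicate 3, the library that stood apart, lay below the highest KO library with LPS. Hpgds fell by 1.31 ± 0.23 on the log2 scale in WT (adjusted p = 0.000531), fell by 0.98 ± 0.23 in KO (adjusted p = 0.00451) and fell by 1.51 ± 0.23 in 3′F (adjusted p = 0.000159). With the KO groups fitted alone the KO call was lost (adjusted p = 0.0717). Tbxas1 (chr6:38875404-39084585, plus strand), which encodes thromboxane A synthase, ranged from 103 to 162 CPM over the 18 libraries, and the resting and LPS libraries overlapped in each genotype. Its log2 difference with LPS was -0.06 ± 0.16 in WT, -0.11 ± 0.16 in KO and -0.19 ± 0.16 in 3′F, with 95% intervals from -0.52 to 0.28 over the 3 genotypes.

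In the leukotriene branch, Alox5 (chr6:116410077-116461178, minus strand) encodes 5-lipoxygenase. It was measured at 6.31, 5.72 and 6.58 CPM in resting WT, 8.28, 6.19 and 19.5 CPM in resting KO and 4.74, 7.19 and 7.26 CPM in resting 3′F libraries. With LPS it was 1.88, 3.82 and 1.91 CPM in WT, 1.52, 1.38 and 2.85 CPM in KO and 3.22, 2.08 and 2.18 CPM in 3′F. Resting and LPS libraries did not overlap within a genotype, and resting KO replicate 3 was the highest of all. Alox5 fell by 1.28 ± 0.41 on the log2 scale in WT (adjusted p = 0.0271), fell by 2.54 ± 0.42 in KO (adjusted p = 0.000281) and fell by 1.32 ± 0.42 in 3′F (adjusted p = 0.0251). Without resting KO replicate 3 the KO value was -1.92 (adjusted p = 0.000347), and the WT call was lost on leaving out any of 5 of the 6 WT libraries (all but LPS replicate 2), with adjusted p up to 0.108, and the 3′F call on leaving out resting replicate 2 or LPS replicate 2 or 3 (up to 0.0998). Neutrophils and granulocyte precursors also express Alox5. Their summed markers ranged from 14.9 to 23.4 CPM in resting WT, 15.7 to 53.3 in resting KO and 13.7 to 66.5 in resting 3′F libraries. With LPS the sums ranged from 28.4 to 67.0 CPM. By single marker, the highest library value was 48.3 CPM for S100a8 and 16.9 for S100a9. It was 6.15 CPM for Camp and at most 3.19 for Ltf, Ngp, Mpo, Elane and Ly6g. The part of such cells in the Alox5 values was not tested. The genes most alike to Alox5 over the 18 libraries were Lsr (r = 0.93), Arhgap45 (0.92) and Tmc6 (0.91).

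Alox5ap (chr5:149264767-149288153, plus strand) encodes FLAP, which presents arachidonic acid to 5-lipoxygenase. It was at 372, 363 and 325 CPM in resting WT, 401, 426 and 465 CPM in resting KO and 349, 363 and 388 CPM in resting 3′F libraries. With LPS it was 303, 325 and 295 CPM in WT, 279, 305 and 314 CPM in KO and 293, 300 and 319 CPM in 3′F. The states were far apart in KO and nearly touched in WT. Alox5ap fell by 0.52 ± 0.10 on the log2 scale in KO (adjusted p = 0.000670) and fell by 0.27 ± 0.10 in 3′F (adjusted p = 0.0423), and the WT difference was -0.20 ± 0.10 (adjusted p = 0.129), which DESeq2 called (adjusted p = 0.0166). The 3′F call was lost in 7 of 11 alternative fits, among them those without resting replicate 2 and without LPS replicate 1, 2 or 3 (adjusted p up to 0.132), with the replicate block (0.0628), and without the low-count filter (0.156).

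Lta4h (chr10:93453411-93484875, plus strand) encodes leukotriene A4 hydrolase, the enzyme of leukotriene B4 synthesis. It was at 74.9, 69.3 and 67.2 CPM in resting WT, 60.1, 57.5 and 53.2 CPM in resting KO and 65.2, 65.1 and 67.4 CPM in resting 3′F libraries. With LPS it was 47.0, 46.4 and 46.7 CPM in WT, 40.3, 37.6 and 47.4 CPM in KO and 46.4, 44.3 and 49.4 CPM in 3′F. The states did not overlap in any genotype. Lta4h fell by 0.59 ± 0.09 on the log2 scale in WT (adjusted p = 0.000206), fell by 0.45 ± 0.09 in KO (adjusted p = 0.00192) and fell by 0.50 ± 0.09 in 3′F (adjusted p = 0.000872).

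Ltc4s (chr11:50236461-50238616, minus strand) encodes leukotriene C4 synthase. It was at 6.37, 7.38 and 6.09 CPM in resting WT, 5.19, 5.81 and 6.74 CPM in resting KO and 5.08, 6.37 and 6.09 CPM in resting 3′F libraries. With LPS it was 2.65, 3.00 and 2.05 CPM in WT, 1.52, 1.45 and 0.927 CPM in KO and 2.56, 1.97 and 2.57 CPM in 3′F. Every LPS library lay below every resting library, and the KO libraries with LPS were the lowest of all. Ltc4s fell by 1.36 ± 0.21 on the log2 scale in WT (adjusted p = 0.000167), fell by 2.17 ± 0.23 in KO (adjusted p = 3.19e-06) and fell by 1.31 ± 0.22 in 3′F (adjusted p = 0.000307). Mast cells and basophils also express Ltc4s and Hpgds, and 7 of the 8 markers of those cells reached no more than 3 counts in any library.

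Loss of miR-146a went with a higher Ptges level at rest. With LPS, Pla2g4a was called higher and Ltc4s lower than in WT, but these calls held in only 3 and 6 of 11 alternative fits. At rest, 2 of the 10 members were called between KO and WT, beside 9.40% of all tested genes. Ptges was 1.23 ± 0.26 higher on the log2 scale in KO (2.35-fold, adjusted p = 0.00867), above every WT library in 3 of 3 KO libraries. Without resting KO replicate 3 the difference was 0.75 and kept its call (adjusted p = 0.0208), and with the compared groups fitted alone it was 1.21 and lost it (adjusted p = 0.101). Lta4h was lower by 0.31 ± 0.09 (adjusted p = 0.0483), and this call was lost without any 1 of the 6 libraries (adjusted p from 0.0594 to 0.159) and held in 1 of 11 alternative fits, that of DESeq2.

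The 8 other members were not called at rest in edgeR. The closest was Alox5ap, 0.28 ± 0.10 higher in KO (adjusted p = 0.0723) with all 3 KO libraries above all WT libraries. DESeq2 called it (adjusted p = 0.00649), which brought DESeq2's count to 3 members, beside 1482 of 11357 genes. Hpgds stood at -0.54 ± 0.23 (adjusted p = 0.159) and Alox5 at 0.85 ± 0.38 (adjusted p = 0.185), both with resting KO replicate 3 as the extreme library.

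With LPS, 2 of the 10 members were called between KO and WT, beside 4.79% of all genes. Pla2g4a was 0.35 ± 0.09 higher on the log2 scale in KO (1.28-fold, adjusted p = 0.0375) and Ltc4s was lower by 0.98 ± 0.23 (1.98-fold, adjusted p = 0.0247), each without overlap between the 3 libraries of either genotype. The Pla2g4a call was lost on leaving out any of 5 of the 6 libraries (all but KO replicate 3; adjusted p up to 0.199), and the Ltc4s call on leaving out WT replicate 1 or 2 or KO replicate 2 or 3 (up to 0.132). With the replicate block the Pla2g4a call was also lost (adjusted p = 0.0574), leaving 1 member called. Without the low-count filter the Pla2g4a call was lost as well. With the compared groups alone both calls were lost (adjusted p = 0.0552 for Pla2g4a and 0.0665 for Ltc4s). Ptges stood at 0.81 ± 0.24 (adjusted p = 0.0639) and Ptgs1 at -0.71 ± 0.25 (adjusted p = 0.118), and Ptges was called in 3 alternatives, with DESeq2 (adjusted p = 0.0185), without the low-count filter (adjusted p = 0.0397) and with the compared groups alone (adjusted p = 0.0219).

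**Figure D3:**
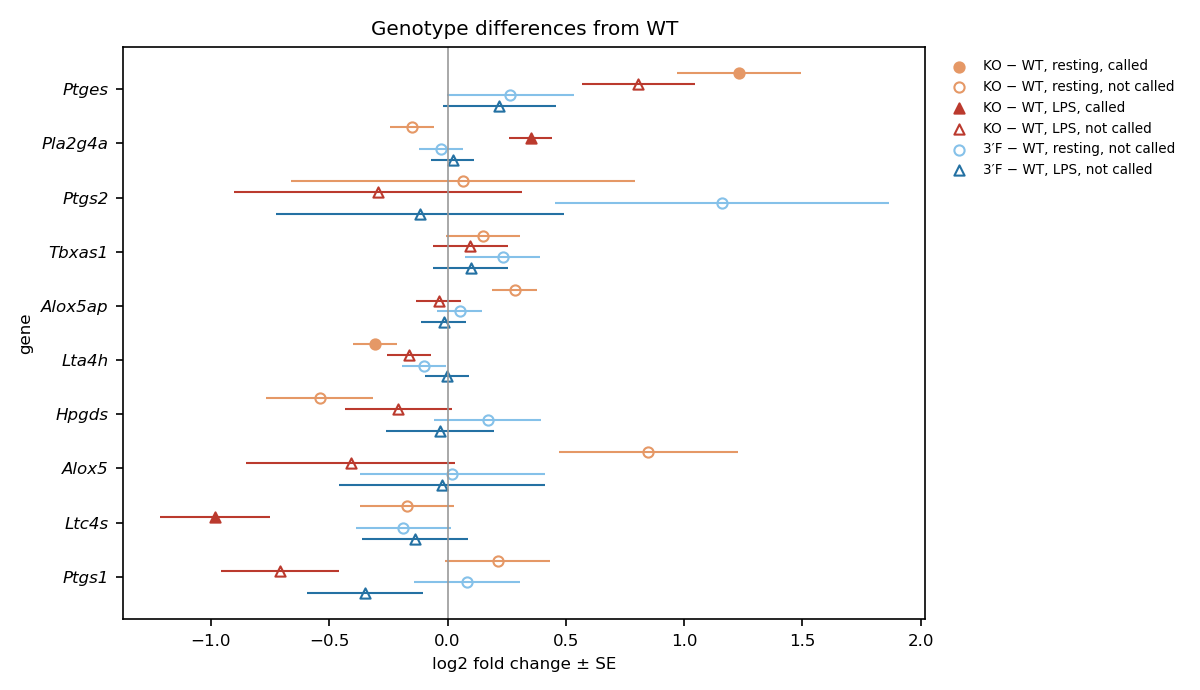
Log2 differences of KO and 3′F from WT (x axis, with the SE as a line) for each gene (y axis), with circles at rest and triangles with LPS, filled where called at adjusted p under 0.05. Ptges and Lta4h at rest and Pla2g4a and Ltc4s with LPS were called in KO, and no gene was called in 3′F.

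The 3′F cells, which keep the seed, gave no called difference from WT in these genes. At rest 0 of the 10 members were called in edgeR, beside 0.00% of all tested genes, and with LPS 0 were called, beside 0.00881%. No member reached an unadjusted p under 0.05 in either state, beside 4.9% of all genes at rest and only 0.933% with LPS. DESeq2 called 0 members in both states, beside 2 of 11357 genes in each. Ptges was 0.27 ± 0.27 higher in 3′F at rest (95% interval -0.30 to 0.83) and 0.22 ± 0.24 higher with LPS (-0.29 to 0.72). Pla2g4a differed by -0.03 at rest (-0.23 to 0.17) and by 0.02 with LPS (-0.17 to 0.22), and Ltc4s by -0.19 (-0.61 to 0.24) and -0.14 (-0.61 to 0.33). The widest interval was that of Ptgs2 at rest, 1.16 with limits of -0.34 and 2.65, which leaves the difference in Ptgs2 unresolved.

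Set directly against 3′F, KO cells differed at rest in 1 member, beside 12.9% of all genes. Ptges was 0.97 ± 0.26 higher on the log2 scale in KO (adjusted p = 0.0262). This call was lost without resting KO replicate 3, where the value was 0.49 (adjusted p = 0.100), and without resting 3′F replicate 2 (adjusted p = 0.0722) or replicate 3 (adjusted p = 0.0595). Hpgds stood at -0.71 ± 0.23 (adjusted p = 0.0505). With LPS 0 members were called in edgeR, beside 3.88% of all genes. An unadjusted p under 0.05 was reached by 3, beside 16.9% of all genes. Pla2g4a stood at 0.33 ± 0.09 (adjusted p = 0.0564), Ltc4s at -0.85 ± 0.24 (adjusted p = 0.0607) and Ptges at 0.59 ± 0.24 (adjusted p = 0.203). DESeq2 called 1 member, Pla2g4a, beside 801 of 11357 genes. These comparisons share the KO libraries with those against WT.

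The size of the LPS response itself was compared between genotypes with an interaction term. No member was called between KO and WT in edgeR (0 of 10, beside 0.00881% of all genes). An unadjusted p under 0.05 was reached by 5, beside 4.93% of all genes, and DESeq2 called 0, beside 23 of 11357 genes. Those 5 were Pla2g4a, with a response 0.50 ± 0.13 higher on the log2 scale in KO (adjusted p = 0.507), Ptgs1 (-0.92 ± 0.33), Ltc4s (-0.81 ± 0.31), Alox5ap (-0.32 ± 0.13) and Alox5 (-1.26 ± 0.58), each with an adjusted p from 0.764 to 0.986 in these 4. Between 3′F and WT, 0 of the 10 responses were called in edgeR, beside 0.00% of all genes. An unadjusted p under 0.05 was reached by 0, beside 1.79% of all genes, and DESeq2 called 0. The larger KO responses of Ptgs1, Ltc4s and Alox5 in the plot of LPS responses are therefore values that did not pass the test of the difference.

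Around the core enzymes, a list of 56 other eicosanoid genes (other phospholipases and acyl-CoA synthetases, synthases, receptors, lipoxygenases, transporters and breakdown enzymes) had 33 genes with enough counts. None of its 6 other lipoxygenase genes passed the filter. With LPS, 7 of the 33 rose and 2 fell in WT (16.3% and 12.3% of all tested genes), 9 rose and 5 fell in KO (14.3% and 12.6%) and 10 rose and 6 fell in 3′F (17.2% and 14.0%). Acsl1, a long-chain acyl-CoA synthetase, rose from 80.2 ± 5.83 to 1014 ± 74.3 CPM in WT (SD, n = 3), with log2 fold changes of 3.66, 3.77 and 3.90 in WT, KO and 3′F. Ptger4, the EP4 receptor for prostaglandin E2, rose by 1.89, 1.27 and 1.94, and Cysltr1, a receptor for cysteinyl leukotrienes, by 1.61, 1.40 and 1.88.

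Hpgd, whose product 15-hydroxyprostaglandin dehydrogenase inactivates prostaglandins, fell by 3.48 ± 0.73 on the log2 scale in WT, fell by 4.36 ± 0.69 in KO and fell by 5.07 ± 0.81 in 3′F, from 6.60 ± 1.98 to 0.587 ± 0.290 CPM in WT. Ptgr2, a prostaglandin reductase gene of the breakdown route, fell by 0.76 in WT, fell by 0.59 in KO and fell by 0.98 in 3′F. Mgst3, a microsomal glutathione transferase, fell by 1.29 in 3′F (adjusted p = 0.0114), a call that was lost without resting 3′F replicate 3 (-0.66, adjusted p = 0.0607) or LPS replicate 2 (-1.06, adjusted p = 0.0614). In KO, the secreted phospholipase Pla2g2e fell by 2.17 (adjusted p = 0.0211, lost without resting KO replicate 2 or 3 or LPS replicate 1 or 2, up to 0.0865) and the aldo-keto reductase Akr1b3 fell by 1.89 (adjusted p = 0.0287). The Akr1b3 value rested on resting KO replicate 3, without which it was 0.059 (adjusted p = 0.844).

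**Figure D4:**
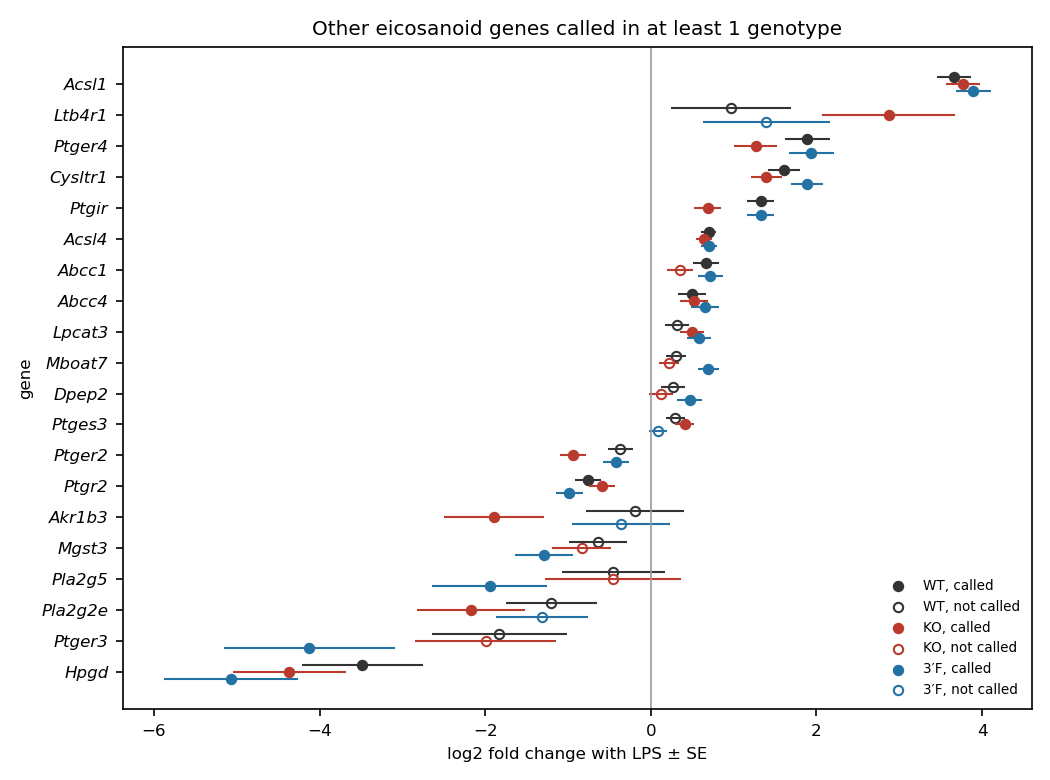
Log2 fold change with LPS (x axis, with the SE as a line) of the 20 genes of the wider list that were called in at least 1 genotype (y axis), in WT, KO and 3′F cells, filled where called and open where not. Acsl1, Ptger4 and Cysltr1 were called higher and Hpgd lower in all 3 genotypes.

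Between genotypes, 5 of the 33 genes were called higher in KO than in WT at rest and 0 lower, beside 9.40% of all genes called in either direction. Ptger4 was 0.97 ± 0.27 higher on the log2 scale (adjusted p = 0.0305), Fam213b, a prostamide and prostaglandin F synthase gene, 0.88 ± 0.27 (adjusted p = 0.0495) and Cysltr1 0.74 ± 0.19 (adjusted p = 0.0235). All 3 calls were lost without 1 library or another. For Ptger4 it was any of the 3 WT libraries or KO replicate 1 or 2 (adjusted p up to 0.118), for Fam213b WT replicate 2 or 3 or KO replicate 1 or 2 (up to 0.186), and for Cysltr1 WT replicate 1 or 2 or KO replicate 3 (up to 0.109). With LPS 0 of the 33 were called between KO and WT in edgeR, beside 4.79% of all genes. An unadjusted p under 0.05 was reached by 6, beside 18% of all genes, and DESeq2 called 3, beside 983 of 11357 genes. Between 3′F and WT 0 were called by either tool in either state. An unadjusted p under 0.05 was reached by 1 at rest, beside 4.9% of all genes, and by 0 with LPS, beside 0.933%.

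Against 3′F at rest, 4 of the 33 were higher in KO and 1 was lower, beside 12.9% of all genes called in either direction. Cysltr1 was 0.90 ± 0.19 higher (adjusted p = 0.00955), Cbr1, a carbonyl reductase gene, 0.53 ± 0.12 (adjusted p = 0.0131) and Dpep2, a dipeptidase gene of leukotriene processing, 0.51 ± 0.15 (adjusted p = 0.0348). Mgst3 was lower by 1.53 ± 0.36 (adjusted p = 0.0133), and without resting 3′F replicate 3 by 0.86 (adjusted p = 0.0536). The Dpep2 call was lost without any of the 3 KO libraries or 3′F replicate 3 (adjusted p up to 0.0893). With LPS 1 of the 33 was higher (beside 3.88% of all genes called), Fam213b at 1.10 ± 0.26 (adjusted p = 0.0289), a call lost without any of the 3 KO libraries or 3′F replicate 2 or 3 (up to 0.142).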

How the data were processed

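Directional rRNA-depleted RNA-seq of 18 BMDM libraries was used. The authors trimmed reads with cutadapt 1.8.3, removed ribosomal reads, aligned to mm10 with HISAT2 2.1.0 and deposited raw counts per protein-coding gene made with featureCounts 1.5.3 in reverse-stranded mode, with replicates kept apart. Positions come from GENCODE M21 (GRCm38), in which 21679 of 21734 gene IDs were found. From the deposited counts, genes were filtered with filterByExpr, libraries scaled with TMM (factors 0.812 to 1.15), and 11 comparisons fitted with edgeR 4.0.16 (R 4.3.3) in 1 quasi-likelihood fit over all 18 libraries, two-sided, with Benjamini-Hochberg adjustment over all tested genes. Where given, the SE of a log2 fold change was derived from the fold change and the F statistic of its test. The 95% intervals were built on that SE. Totals differed 4.87-fold, and 3 counts equalled 0.164 to 0.702 CPM. With 3 against 3 libraries an exact permutation test could not go below p = 0.1. No replicate pair agreed within sampling noise. On simulated data, the test of KO against WT at rest called 3 of 25 rises of 1.5-fold and 32 of 50 changes of 2-fold. Falls of 1.5-fold were simulated but not scored. The test of the LPS response in WT, scored in the same way, called 2 of 25 and 34 of 50. False calls made up 3.52% and 6.85% of the calls in these 2 tests. The simulation changed far fewer genes than were called in the data, so its adjustment was stricter and its rates do not carry over. In the data, Pla2g4a was called at 1.55-fold with LPS in WT. Alox5 was not called at 1.80-fold between KO and WT at rest, so differences of such sizes can go uncalled.

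All 10 members are named, and of the wider list, in each comparison, up to 3 called genes a direction with the largest change and an average log2 CPM of at least 0. Seed matches were searched in each gene's longest annotated 3′ UTR. The members, gene lists and marker lists (macrophage, mast cell and basophil, neutrophil, eosinophil, platelet, fibroblast, T cell, B cell, dendritic cell) were chosen with earlier results of these data known. Fibroblast, T cell, B cell and dendritic cell markers summed to at most 3.51, 0.234, 0.434 and 3.51 CPM. Alternatives were RLE scaling, DESeq2 1.42.0, no low-count filter, the compared groups alone, a replicate block and leaving out each library.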

Additional observations from a re-analysis of the deposited data

How the results depend on the processing

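Of 28 calls of single members, 19 held in every alternative, 9 were lost in at least 1 and 0 changed sign. Of the 25 wider-list calls selected for naming by their large change, 14 held in every alternative and 11 were lost in at least 1. Of those lost, 1 changed sign. It was Akr1b3 in KO (-1.89), which ranged from -2.35 to 0.059 with libraries left out, the latter without resting KO replicate 3. The other calls of the wider list were not followed gene by gene. The number of members called in each LPS response stayed within 1.5 times the reported one in every alternative, and it stayed at 0 between 3′F and WT and in the comparisons of LPS responses. Between KO and WT at rest (2 members) it was 3 with DESeq2, 1 with RLE scaling, 1 without the low-count filter, 0 with the compared groups alone, 1 with the replicate block and 1 to 1 when each library was left out. Between KO and WT with LPS (2) it was 1 with the compared groups alone (Ptges, with both reported calls lost), 1 with the replicate block and 0 to 1 with libraries left out. Between KO and 3′F at rest (1) it was 3 with DESeq2, 0 with the compared groups alone and 0 to 2 with libraries left out, and with LPS (0) it was 1, 2 and 0 to 1. The cause was not tested. Over all genes, the compared groups alone gave 396 in place of 1067 calls between KO and WT at rest and 1031 in place of 544 with LPS. Between KO and 3′F they gave 16 in place of 1464 at rest and 1661 in place of 441 with LPS. DESeq2 gave 1482 calls at rest and 983 with LPS between KO and WT, and 2094 and 801 between KO and 3′F. Leaving out a library gave as few as 392, 180, 735 and 142 calls in these 4 comparisons. Replicate numbers paired the samples only in part. Deviations of resting and LPS libraries with the same number correlated from 0.03 to 0.32 within a genotype (5 of 9 over 0.1, and 8 of 9 best with their own number), and across genotypes from -0.29 to 0.21. The depth of resting 3′F replicate 3 and the low counts of Ptgs2, Alox5 and Ltc4s limit the precision.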
